A study of Mus musculus with 6 samples.

Results

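The 34 genes described here mark endothelial cells, the cells that line blood vessels. They were chosen by symbol from general knowledge of the cell type: Ehd3 and Emcn as genes known from the capillaries of the glomerulus, the filtering unit of the kidney, and 32 general endothelial genes. All 34 symbols matched 1 identifier each among 36889 genes and aggregates of overlapping genes, and all 34 were among the 19742 genes with enough reads to test. The libraries hold polyadenylated RNA of mice labelled as podocytes, the epithelial cells that wrap those capillaries: 3 libraries are labelled as knockout of CD2BP2 (KO1 to KO3) and 3 as wild-type control (WT1 to WT3). CD2BP2 carries a GYF domain and takes part in assembling the spliceosome, and the study asked about its role in splicing and in podocyte integrity. Both groups are labelled with the C57BL/6 background. Per the labels' protocols, the floxed allele was made in R1/E mouse embryonic stem cells with a loxP site behind exon 3 of Cd2bp2, and the neomycin cassette was removed with a FLPO deleter strain. The treatment text describes bone marrow macrophages of CD2BP2flox/flox MxCre+ mice and littermate controls given poly (I:C), which goes against the source label. No Cre driver is named for the podocytes, and neither the animals' age nor whether libraries came from separate animals is given for them, so each p-value rests on the spread among these 6 libraries, which may be technical.

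Endothelial cells of the glomerulus are fenestrated: they carry pores through which plasma is filtered, and they depend on growth factors from the podocytes on the other side of the basement membrane. Endothelial identity is held by transcription factors of the ETS and SOX families, among them Erg, Sox17 and Sox18. The cells are joined by cadherin and claudin contacts, and sense flow and growth factors through receptors such as Tie1 and endoglin.

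In these libraries the endothelial genes were abundant, and in KO most of them stood within 1.5-fold of WT. Adgrf5, an adhesion G protein-coupled receptor, was the one gene that changed past the test: it was 18.3% lower in KO by mean. That call did not hold in any fit that left out 1 library. DESeq2 called 6 of the genes lower, beside 2766 of all 19742 genes called in either direction. Esam, Cldn5, Robo4, Fabp4, Ehd3 and Emcn were also lower in every KO library than in every WT library, without passing the test. With Adgrf5 these were 7 of the 34 genes, beside 14.8% of all genes tested. The pan-endothelial gene Pecam1 had the same mean in both groups. Of the 34 genes, 29 had a log2 fold change below 0, beside 49.1% of all genes tested. One control library, WT3, held more of most of these transcripts than any other library, and without it 19 of the 34 genes were below 0.

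Sequences are shown for an endothelial microRNA and for start sites, since ETS factors are known to act at endothelial promoters. The first is the microRNA inside the Egfl7 locus, which is read out here together with its host gene, with its seed (bases 2 to 8) in capitals, from RefSeq on GRCm38.p6 at chr2:26591402-26591423, plus strand.
mmu-miR-126a-3p: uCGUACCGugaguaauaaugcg

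The next are windows of 250 bases upstream of RefSeq start sites (GRCm38.p6) that hold an ETS-type motif, CAGGAAG on either strand. They belong to 3 genes lower in every KO library, with each match in capitals.
Adgrf5 promoter, chr17:43360181-43360430, plus strand: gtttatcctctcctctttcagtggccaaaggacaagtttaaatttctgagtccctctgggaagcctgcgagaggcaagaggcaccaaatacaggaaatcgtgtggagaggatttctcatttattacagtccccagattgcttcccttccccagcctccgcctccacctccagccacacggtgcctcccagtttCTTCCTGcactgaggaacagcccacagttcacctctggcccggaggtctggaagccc
Emcn promoter, chr3:137340828-137341077, plus strand: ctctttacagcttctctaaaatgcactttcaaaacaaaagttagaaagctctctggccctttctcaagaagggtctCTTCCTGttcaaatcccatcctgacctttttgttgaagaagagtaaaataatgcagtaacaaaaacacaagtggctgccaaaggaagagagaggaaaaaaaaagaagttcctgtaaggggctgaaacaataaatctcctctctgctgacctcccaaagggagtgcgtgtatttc
Robo4 promoter, chr9:37401722-37401971, plus strand: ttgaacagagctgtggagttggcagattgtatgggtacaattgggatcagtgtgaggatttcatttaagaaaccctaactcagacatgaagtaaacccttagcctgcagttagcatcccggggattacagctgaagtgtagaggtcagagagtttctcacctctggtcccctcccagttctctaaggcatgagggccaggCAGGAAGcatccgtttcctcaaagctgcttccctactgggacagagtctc

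The last is the window of Ehd3, one of the most abundant of the 34 and also lower in every KO library, which holds no match.
Ehd3 promoter, chr17:73804591-73804840, plus strand: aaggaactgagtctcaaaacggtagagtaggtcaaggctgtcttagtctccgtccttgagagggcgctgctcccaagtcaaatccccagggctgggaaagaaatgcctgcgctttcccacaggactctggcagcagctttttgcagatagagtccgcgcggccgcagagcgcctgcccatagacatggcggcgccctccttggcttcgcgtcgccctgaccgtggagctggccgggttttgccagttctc

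Among the genes described here, 17 symbols had 23 such windows, and CAGGAAG lay in 10 of them (43.5%, in 9 genes), beside 10.8% of all 32851 windows. The other ETS-type motif searched, CCGGAAG, lay in 0 of the 23 and in 6.91% of all. Both motifs hold the core GGAAG but cannot match at the same position, both strands were searched, and they were chosen after the values were seen. A match describes the letters in the window and is not a binding site. Cldn5, also lower in every KO library, had a window without a match.

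Total counts over exonic parts ranged from 186022084 to 255554573 per library. A gene's level is given as counts per 1000000 (CPM) of the library's scaled total, and the lowest count of any of the 34 genes in any library was 627. The targeted gene Cd2bp2 stood at 60.95, 61.84 and 60.79 CPM in WT1 to WT3 and at 48.40, 47.28 and 51.04 CPM in KO1 to KO3 (log2 fold change -0.32, edgeR adjusted p = 0.0297), so the KO libraries kept most of its level. Cd2bp2 passed in 1 of 6 fits that each left out 1 library, the one without KO3 (adjusted p 0.0457 to 0.146 over the 6). The label was checked against podocyte markers: the summed level of 10 of them, none at 0, was 23490 to 26350 CPM in WT and 21210 to 23070 CPM in KO, with no overlap. Of the 10, 5 were lower in every KO library and 1, Nphs1, passed the test, with a median log2 fold change of -0.23. The summed level of the 34 endothelial genes equalled 44.5%, 45.1% and 55.6% of the podocyte sum in WT1 to WT3 and 47.0%, 54.2% and 52.4% in KO1 to KO3. These ratios overlapped between the groups, although both sums had lower means in KO: the endothelial sum was 11460 to 13070 CPM in WT and 10840 to 11490 CPM in KO. The libraries labelled podocytes thus held RNA of endothelial genes in both groups. In bulk RNA, fewer endothelial cells and less of a transcript per cell cannot be told apart.

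Levels between genes were compared per kilobase of annotated exonic parts. The order at the top depended on which parts count as length. Over all parts, Ehd3, an ATPase of endosomal recycling, stood at 421.5 CPM per kb (mean of 6 libraries). Emcn (endomucin, a sialomucin of the capillary surface) stood at 245.4 CPM per kb and Eng (endoglin, a co-receptor of the TGF-beta family), with its neighbour Ak1, at 235.1 CPM per kb. Of Emcn's 5409 bases, most belong to a little-used stretch of 2821 bases, described further on. Without parts found only in retained-intron transcripts and without parts of neighbouring genes, Emcn stood at 503.7, Ehd3 at 421.5, Eng at 368.9 and Egfl7 at 198.1 CPM per kb. In WT, Emcn (525.8 ± 20.6, SD, n = 3) and Ehd3 (462.7 ± 40.1, SD, n = 3) then did not overlap, and in KO Eng and Ehd3 lay within their spread. That choice of parts was made after the values were seen. Over all parts Cd34 (157.0) and Pecam1 (149.2) came next after these 3 and lay within their spread in WT. At the lower end stood Nos3 at 13.63, Tal1 at 3.674 and Vwf at 0.4927 CPM per kb over all parts. The range from highest to lowest over all parts spanned 855-fold, and 1460-fold without WT3, which held most of the Vwf counts. Von Willebrand factor, a clotting protein that marks larger vessels more than capillaries, was the least abundant of the 34 by both lengths. Ehd3 and Emcn together made up 24.6% of the summed CPM of all 34 genes. The level order of the other genes between these ends is shown in the plot of CPM per kb.

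**Figure D1:**
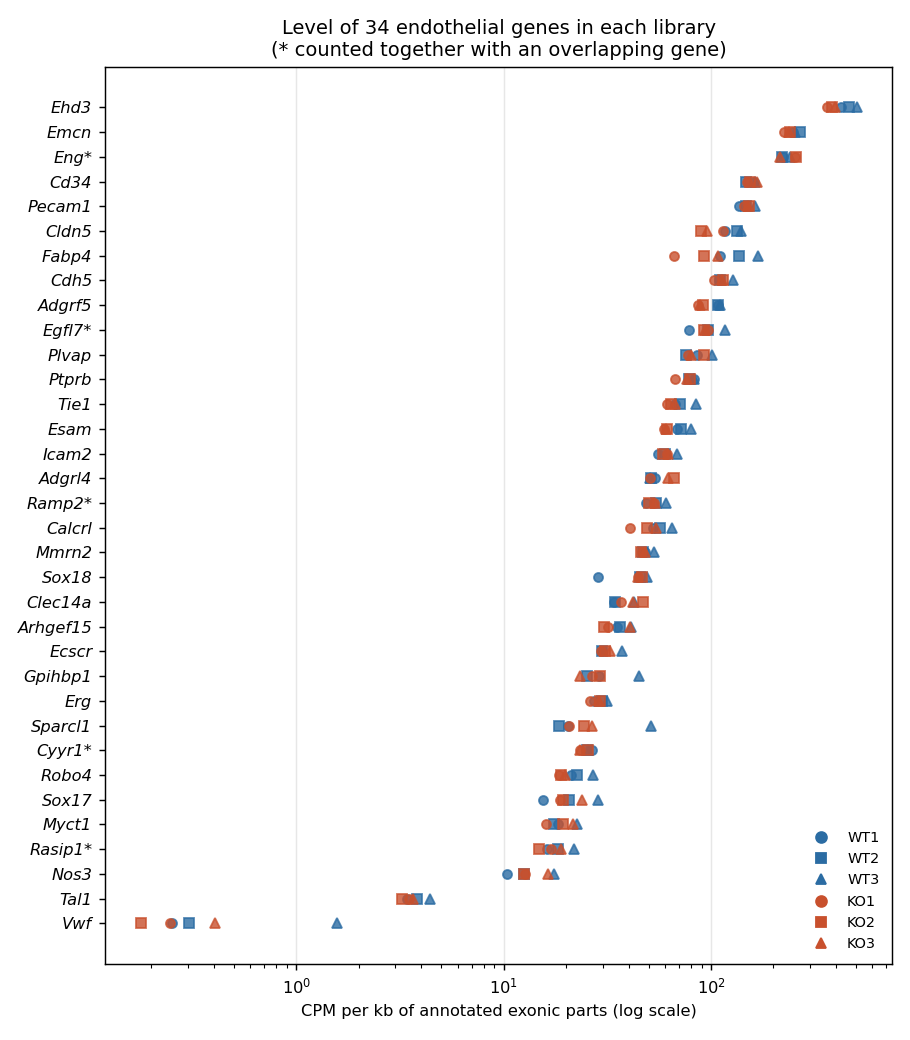
Level of each of the 34 endothelial genes in CPM per kb of exonic parts (x axis, log scale), 1 point per library (blue WT, orange KO; circle, square and triangle for libraries 1, 2 and 3). Over all annotated parts Ehd3 is highest with a mean of 421.5 and Vwf lowest with 0.4927, and for Vwf and Sparcl1 the WT3 triangle lies apart on the right.

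The first question was whether endothelial genes differed between KO and WT libraries. Of the 34 genes, 0 were higher and 1 was lower at an edgeR adjusted p under 0.05, in a table where 3.37% of all genes passed, 1.62% of them higher and 1.76% lower. At an unadjusted p under 0.05 there were 6 genes, all lower, which is 6 of 34 beside 22.6% of all genes in either direction. KO and WT libraries did not overlap for 7 genes with KO lower, beside 14.8% of all genes, and for 0 genes with KO higher, beside 14.1%. With DESeq2, which called 2766 of the 19742 genes in either direction in place of 666, 6 of the 34 were lower and 0 higher. The log2 fold change was below 0 for 29 of the 34 genes, compared with 49.1% of all genes tested. The median was -0.09 over the 34 genes and 0.01 over all genes tested. The 95% intervals of 28 genes included 0, those of 27 genes lay within 1.5-fold of no change and those of 31 within 2-fold. The median SE was 0.10, against 0.13 over all genes, so that changes of the size of the median were not detectable for a single gene.

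**Figure D2:**
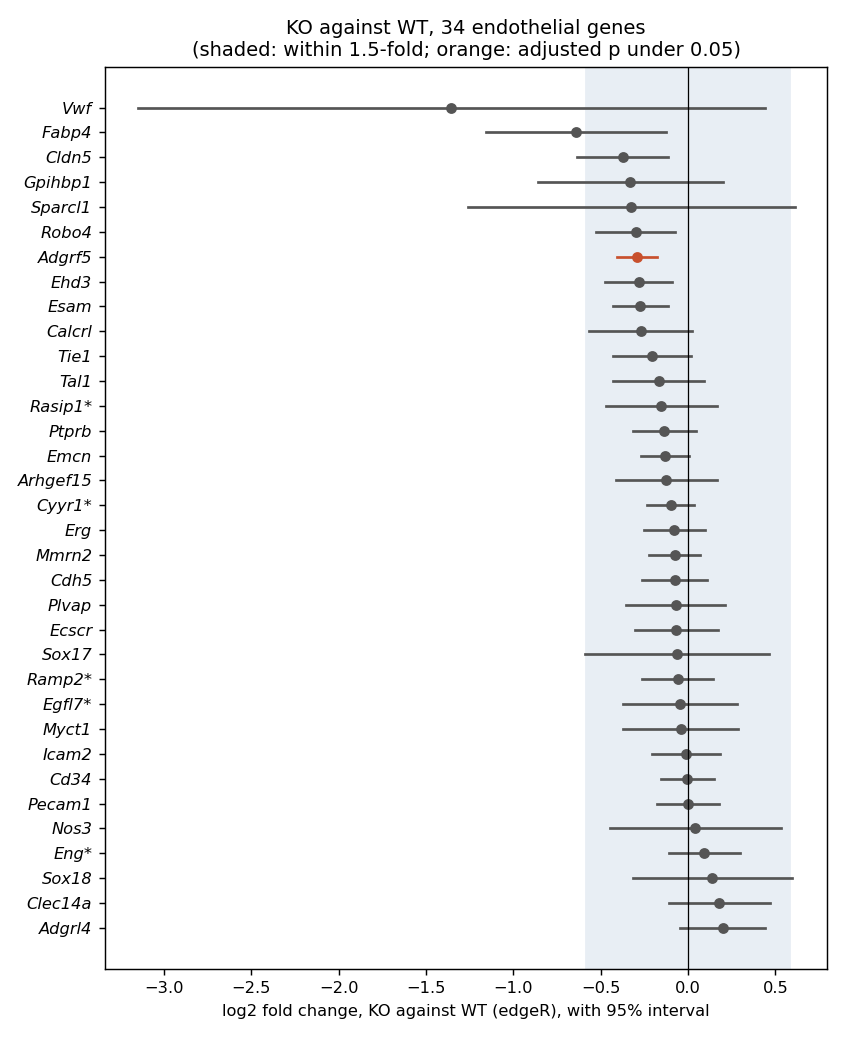
Log2 fold change of KO against WT from edgeR (x axis) with its 95% interval for each gene, in order of size. Adgrf5 is the 1 gene past the adjusted threshold (orange), and 27 of the 34 intervals lie inside the shaded range of 1.5-fold.

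Among the 8 genes of junctions and cell-surface adhesion, 0 passed the test and 7 had a log2 fold change below 0 (median -0.04). Esam, an immunoglobulin-type adhesion protein of endothelial tight junctions, stood at 195.9, 204.4 and 228.7 CPM in WT1 to WT3 and at 170.3, 176.1 and 174.3 CPM in KO1 to KO3. Every KO library lay below every WT library (log2 fold change -0.27, SE 0.07, edgeR adjusted p = 0.0807). Cldn5, the main claudin of endothelial tight junctions, stood at 165.2, 188.1 and 196.9 CPM in WT and at 162.2, 126.8 and 135.3 CPM in KO. KO1 lay just under WT1, while KO2 and KO3 lay well below all WT libraries (log2 fold change -0.37, SE 0.11, edgeR adjusted p = 0.119). Emcn stood at 1348, 1444 and 1371 CPM in WT and at 1214, 1306 and 1282 CPM in KO. The groups did not overlap, although the gap was small (log2 fold change -0.13, SE 0.06, edgeR adjusted p = 0.241). Pecam1, the platelet and endothelial adhesion molecule, stood at 591.5, 639.1 and 700.7 CPM in WT and at 619.2, 658.7 and 653.1 CPM in KO. Its KO values lay inside the WT range (95% interval of the log2 fold change -0.18 to 0.18). The fold changes of the junctional cadherin Cdh5 (-0.08), Icam2 (-0.01) and Cd34 (0.00) had intervals that included 0, and Clec14a, a C-type lectin, was the one adhesion gene above 0 (0.18, edgeR adjusted p = 0.431).

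Of the 9 receptors and receptor partners, 1 was lower, and 7 had a log2 fold change below 0 (median -0.14). Adgrf5 lies at chr17:43526415-43596506 on the plus strand (NCBIM37, as the files give it) and was counted over 22 exonic parts. It stood at 938.1, 932.1 and 951.9 CPM in WT1 to WT3 and at 750.3, 789.1 and 766.2 CPM in KO1 to KO3. The libraries within each group were close together and the groups stood far apart (log2 fold change -0.29, SE 0.05, 95% interval -0.41 to -0.18, edgeR adjusted p = 0.0374). In the 6 fits that each left out 1 library the log2 fold changes ran from -0.32 to -0.28. Their direction follows from the lack of overlap and adds no support. Adgrf5 passed the threshold in 0 of these 6 fits (edgeR adjusted p 0.0677 to 0.157). Robo4, a roundabout receptor of endothelial cells, stood at 86.75, 92.23 and 110.6 CPM in WT and at 76.12, 77.67 and 81.34 CPM in KO. All KO values were lower than all WT values (log2 fold change -0.30, SE 0.09, edgeR adjusted p = 0.135). Tie1, the orphan partner of the angiopoietin receptor, stood at 329.0, 349.0 and 414.5 CPM in WT and at 302.2, 314.1 and 329.4 CPM in KO. KO3 lay just above WT1, so the groups overlapped by 1 library (log2 fold change -0.21, edgeR adjusted p = 0.246). Eng, counted together with the neighbouring Ak1, stood at 1460, 1440 and 1564 CPM in WT and at 1667, 1681 and 1413 CPM in KO. KO1 and KO2 were the highest and KO3 the lowest of all 6 libraries (log2 fold change 0.09, edgeR adjusted p = 0.560). Over the parts that belong to Eng alone, which held 93.0% of the counts, the log2 fold change was 0.12 (edgeR adjusted p = 0.492). Ptprb, the endothelial receptor phosphatase, had a log2 fold change of -0.14, the adrenomedullin receptor Calcrl -0.27 and its partner Ramp2 -0.06. Ecscr stood at -0.07, and Adgrl4, another adhesion G protein-coupled receptor, at 0.20, the highest value of the 34 (edgeR adjusted p = 0.298).

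The 4 transcription factors gave 0 calls and a median log2 fold change of -0.07. Erg, an ETS factor that maintains endothelial identity, stood at 94.62, 103.4 and 109.7 CPM in WT and at 90.53, 101.0 and 100 CPM in KO. The groups overlapped and the 95% interval ran from -0.25 to 0.10. Tal1, a basic helix-loop-helix factor of blood and endothelium, stood at 14.95, 16.74 and 19.39 CPM in WT and at 15.31, 14.21 and 15.93 CPM in KO, with overlapping groups (log2 fold change -0.17, edgeR adjusted p = 0.409). Of the 4, Sox17 and Sox18 varied most within WT, from 48.53 to 89.65 CPM and from 46.18 to 79.44 CPM, with WT1 lowest and WT3 highest in both.

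Of the 4 secreted and matrix proteins 0 passed, and all 4 log2 fold changes were below 0 (median -0.20). Egfl7, a secreted angiogenic factor, stood with its aggregate at 476.4, 586.9 and 705.2 CPM in WT and at 587.8, 557.5 and 566.0 CPM in KO. All KO values lay inside the WT range (log2 fold change -0.05, edgeR adjusted p = 0.870). The exonic part that holds the miR-126a hairpin had 78, 127 and 184 counts in WT and 121, 65 and 198 counts in KO; polyadenylated RNA reports the precursor transcript there and not the mature microRNA printed above. Vwf stood at 4.043, 4.887 and 25.20 CPM in WT and at 3.954, 2.855 and 6.547 CPM in KO. WT3 alone was high, at 5.65 times the mean of WT1 and WT2. The log2 fold change of Vwf was -1.35 (SE 0.75, edgeR adjusted p = 0.338), and without WT3 it was -0.0045. Sparcl1, a matricellular protein, stood at 63.54, 57.46 and 159.1 CPM in WT and at 64.13, 75.95 and 83.41 CPM in KO. WT3 was again alone, at 2.63 times the mean of the other WT libraries, and the log2 fold change of Sparcl1 turned from -0.33 to 0.30 without it (edgeR adjusted p = 0.668 and 0.228). Mmrn2, an endothelial multimerin, had a log2 fold change of -0.08.

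Among the 4 genes of nitric oxide synthesis, lipid handling and the fenestral diaphragm, 0 passed (median -0.20). Fabp4, a fatty acid binding protein of capillaries and adipocytes, stood at 70.31, 86.41 and 107.3 CPM in WT and at 42.04, 58.60 and 68.51 CPM in KO. Every KO library was lower, and KO3 came close to WT1 (log2 fold change -0.64, SE 0.21, edgeR adjusted p = 0.153). The 4 adipocyte markers summed to at most 0.0615 CPM in any library, so adipocyte RNA was near 0 in both groups. Nos3, the endothelial nitric oxide synthase, stood at 42.82, 51.58 and 72.04 CPM in WT and at 52.40, 51.56 and 67.43 CPM in KO, with overlapping groups (log2 fold change 0.04, edgeR adjusted p = 0.927). Plvap, the protein of the diaphragms that close fenestrae, stood at 172.2, 152.5 and 202.6 CPM in WT and at 155.8, 185.8 and 160.7 CPM in KO. Its groups overlapped as well (log2 fold change -0.07, edgeR adjusted p = 0.769). Gpihbp1, which carries lipoprotein lipase to the capillary lumen, had a log2 fold change of -0.33 with an interval from -0.86 to 0.20.

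All 5 intracellular regulators and other genes had log2 fold changes below 0 (median -0.12), and 0 passed. Ehd3 lies at chr17:74154181-74181433 on the plus strand (NCBIM37). It stood at 1549, 1688 and 1842 CPM in WT1 to WT3 and at 1325, 1403 and 1446 CPM in KO1 to KO3. All KO values were lower than all WT values (17.8% lower by mean, log2 fold change -0.28, SE 0.08, edgeR adjusted p = 0.108). The Ras-interacting protein Rasip1 stood at -0.15, the RhoGEF Arhgef15 at -0.12, Myct1 at -0.04 and Cyyr1 at -0.10, each with an interval that included 0.

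**Figure D3:**
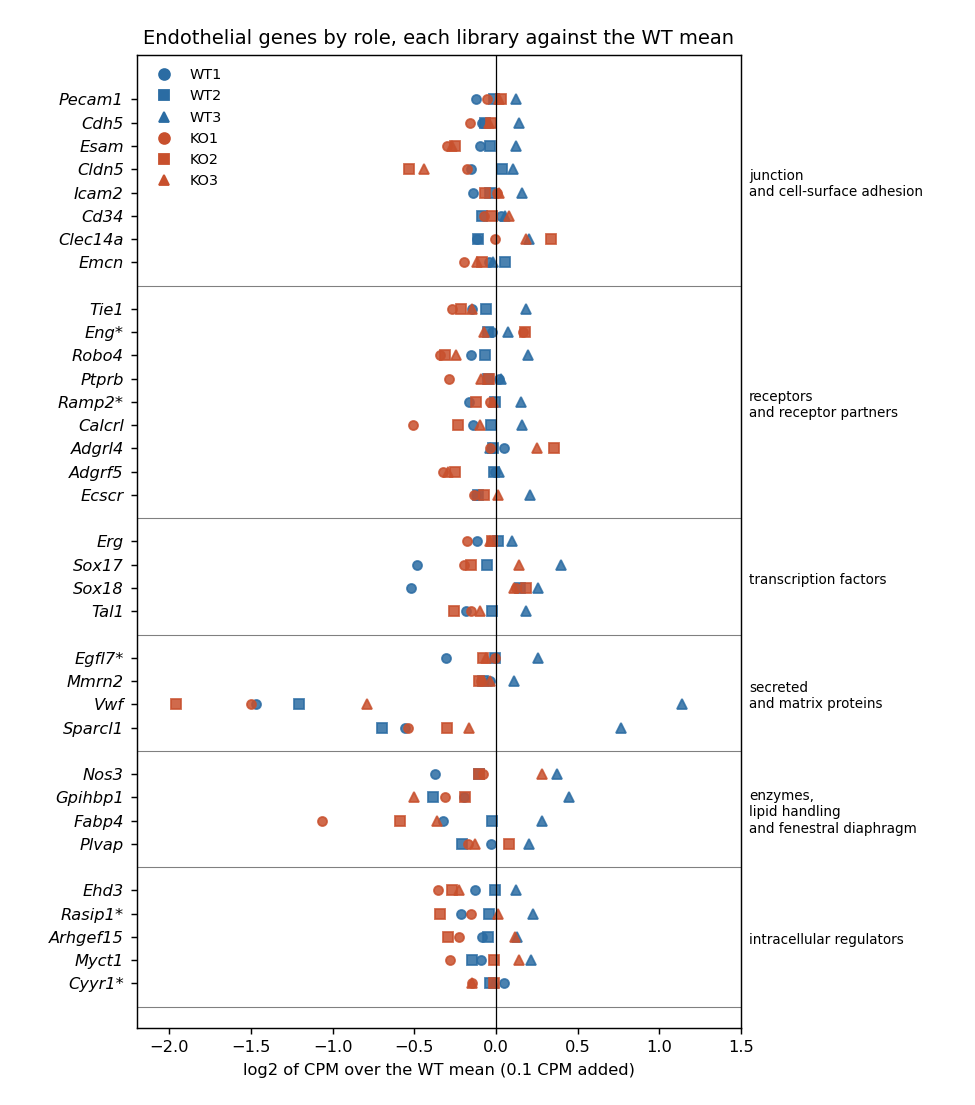
Log2 of each library's CPM over the WT mean (x axis) for the 34 genes grouped by role, 1 point per library (blue WT, orange KO; circle, square and triangle for libraries 1, 2 and 3; an asterisk marks genes counted together with an overlapping gene). WT3 is the rightmost point in 28 of the 34 genes, and in 7 genes all KO points lie left of all WT points.

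The glomerular pair was then set beside the general genes. The median log2 fold change was -0.21 for Ehd3 and Emcn and -0.08 for the 32 general genes. A list of 6 other genes of glomerular endothelium (Plat, Gata5, Tbx3, Sost, Mapt and Nostrin) had a median of -0.35. Of these 6, 5 were below 0 and 2, Plat and Nostrin, passed the test as lower. Sost went the other way, at 1.36 (edgeR adjusted p = 0.160). Relative to Pecam1, Ehd3 stood at 2.62, 2.64 and 2.63 in WT and at 2.14, 2.13 and 2.21 in KO. The WT ratios were almost equal, although Ehd3 itself varied from 1549 to 1842 CPM, and all KO ratios were lower. Pecam1 is one of 32 possible references, and the ratio of Ehd3 was lower in every KO library for 13 of them and higher for 0. For Adgrf5 the ratio was lower in every KO library for 12 of the other 31 general genes. Emcn did not share that pattern: its ratio to Pecam1 was 2.28, 2.26 and 1.96 in WT and 1.96, 1.98 and 1.96 in KO, and its ratio was lower in every KO library for 1 general gene and higher for 3. Ehd3, Emcn and Adgrf5 were themselves lower in every KO library, as were 14.8% of all genes tested. How often such ratios separate the groups for other genes was not counted. These ratios are a description with no test of the pair against the rest.

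**Figure D4:**
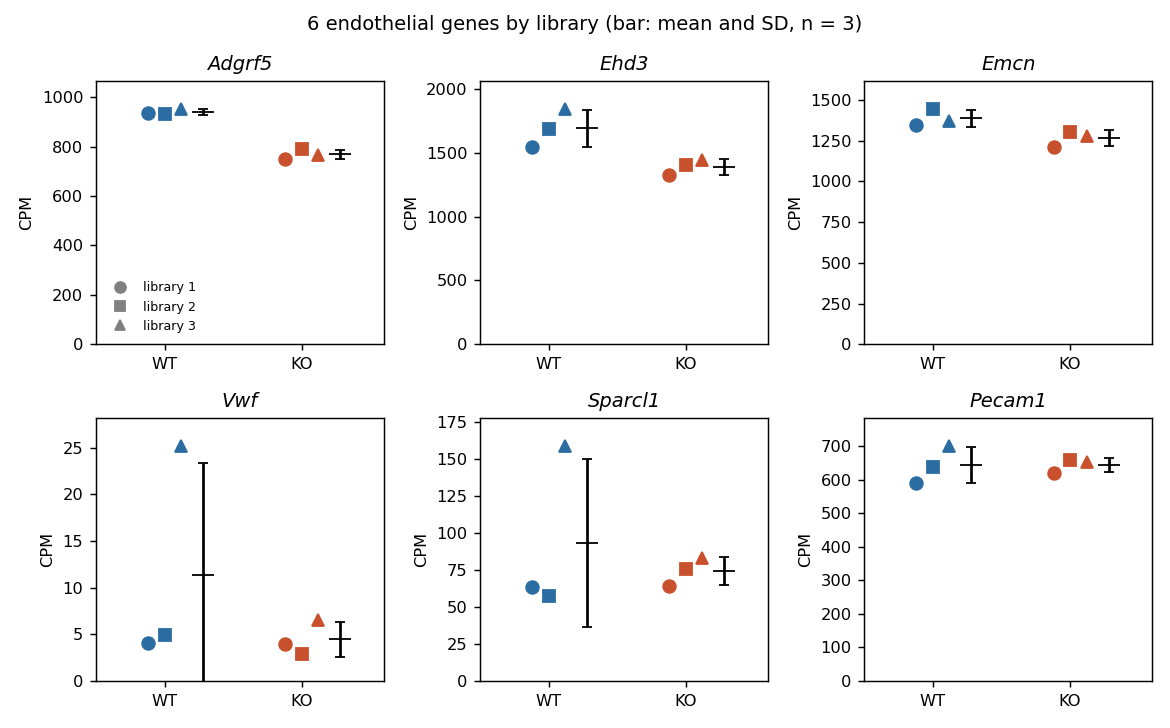
CPM of 6 endothelial genes by library (y axis from 0), WT in blue and KO in orange, with the mean and SD of 3 libraries beside each group (the lower bar of Vwf in WT is clipped at 0). Adgrf5 and Ehd3 separate the groups, Pecam1 does not, and in Vwf and Sparcl1 the WT3 value of 25.20 and 159.1 CPM stands alone.

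The control library WT3 stood apart in these comparisons. It was the highest of all 6 libraries in 28 of the 34 genes (82.4%) and in 17.2% of all genes tested. Its level over the mean of WT1 and WT2 had a median of 1.184 for the 34 genes and 0.9935 for all genes. The median log2 ratio of the 34 genes to the WT mean was -0.13, -0.05 and 0.16 in WT1 to WT3 and -0.18, -0.11 and -0.07 in KO1 to KO3. KO1 was the lowest KO library in 21 genes (61.8%, against 27.3% of all genes). Without WT3 the median log2 fold change of the 34 genes was -0.01, with 19 genes below 0 in place of 29. Among markers of other cells, erythroid genes were also highest in WT3 (55.58 CPM summed, against 3.289 and 7.408 CPM in WT1 and WT2), and of 9 mesangial and smooth muscle markers 6 were highest of the WT libraries in WT3. Furthest apart stood Myh11, a smooth muscle myosin, at 137.2 CPM in WT3 against 41.62 and 38.19 CPM in WT1 and WT2. Acta2, smooth muscle actin, followed at 145 against 73.15 and 59.59 CPM. Tagln, another smooth muscle gene of that list, did not share this, at 106.2, 81.34 and 104.1 CPM in WT1 to WT3. The mesangial genes Itga8 and Pdgfrb, which carry most of that list's sum, were lowest of the WT libraries in WT3. Their part in the WT3 levels was not tested.

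Sums of some markers of other cells differed between the groups as well, beside the lower podocyte sum in KO given above. The summed level of 7 macrophage markers was 84.33 to 111.4 CPM in WT and 166.1 to 182.8 CPM in KO, and 2 of the 7 were higher in the test. The 6 proximal tubule markers summed to 353.9 to 467.7 CPM in WT and 499.2 to 694 CPM in KO (1 higher). The 6 markers of the later tubule summed to 172.8 to 323.1 CPM in WT and 254.6 to 1354 CPM in KO (1 higher). These later tubule sums overlapped: KO2 was highest at 1354 CPM, and KO3 at 254.6 CPM lay below WT1 and WT3. The mesangial and smooth muscle sum overlapped, at 2615 to 3131 CPM in KO. No marker of these lists was at 0 in every library. Their part in the endothelial values was not tested.

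Other endothelial genes were counted from a list of 45, of which 44 were tested. Of these 44, 2 were higher and 4 were lower, beside 1.62% of all genes higher and 1.76% lower. Their median log2 fold change was -0.09. The leukocyte adhesion genes Icam1 (0.89, edgeR adjusted p = 0.00499) and Vcam1 (1.30, edgeR adjusted p = 0.0447) were higher in KO. Macrophage markers were higher in these libraries too, and both genes are also expressed outside endothelium. Which cells these transcripts came from was not tested. Lower in KO were Plat, the tissue plasminogen activator (-0.67, edgeR adjusted p = 0.0342), and S1pr1, the sphingosine-1-phosphate receptor that steadies endothelial junctions (-0.61, edgeR adjusted p = 0.0350). The other two lower genes were Nostrin, which binds endothelial nitric oxide synthase (-0.45, edgeR adjusted p = 0.0447), and the venous transcription factor Nr2f2 (-0.29, edgeR adjusted p = 0.0466). S1pr1 stood at 141.0, 129.5 and 146.8 CPM in WT and at 95.11, 99.35 and 78.93 CPM in KO, with no overlap. Nostrin stood at 147.9, 173.6 and 148.2 CPM in WT and at 108.2, 113.0 and 121.9 CPM in KO, also with no overlap. In fits that each left out 1 library, Icam1 passed in 6 of 6, S1pr1 in 1, and Plat, Vcam1, Nostrin and Nr2f2 in 0. Of 7 receptors and ligands of the VEGF and angiopoietin systems 0 passed, and Kdr, the main VEGF receptor, stood at 1790 ± 56.9 CPM in WT and 1701 ± 79.8 CPM in KO (SD, n = 3 each).

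Because CD2BP2 takes part in assembling the spliceosome, exonic parts of the same genes were compared as well. An exonic part is a stretch of exon bounded by annotated exon edges, and its usage is its change relative to the rest of its gene. The 34 genes held 683 parts, of which 617 in 32 genes were tested. None of the 617 passed diffSpliceDGE in edgeR at an adjusted p under 0.05, where 0.0627% of all parts did, and 0 of the 32 genes passed Simes' test, where 0.383% of all genes did. By limma-voom diffSplice 0 parts passed too. At an unadjusted p under 0.05 there were 16 parts (2.59%, against 1.16% of all parts), all with lower usage in KO, and 10 of these 16 lay in the Eng aggregate in parts that are not of Eng alone.

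The smallest p of these parts belonged to Tie1 part 14, a stretch of 460 bases at chr4:118151758-118152217 (NCBIM37, minus strand). It took 0.851%, 0.735% and 0.836% of the Tie1 counts in WT and 0.612%, 0.378% and 0.707% in KO. All KO shares were lower (log2 usage -0.36, diffSpliceDGE adjusted p = 0.418). Tie1 part 11, of 366 bases, took 0.452%, 0.468% and 0.429% in WT and 0.340%, 0.219% and 0.398% in KO (log2 usage -0.34, diffSpliceDGE adjusted p = 1). KO2 was lowest in both. The parts of Ehd3 had no p below 0.769 and those of Adgrf5 none below 0.512. In Emcn the smallest p was that of part 12, a 2821-base stretch annotated only in a retained-intron transcript, with 2.10%, 1.63% and 2.10% of the counts in WT and 1.56%, 1.43% and 1.90% in KO (diffSpliceDGE adjusted p = 1), and the groups overlapped.

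Parts found only in retained-intron transcripts, a class singled out after its values were seen, numbered 23 in 11 genes. Of the 18 tested, 13 had usage below 0 in KO (median -0.17), beside 52.7% of all tested parts of the 34 genes (median -0.002). Their counts made up 1.334%, 1.356% and 1.654% of their genes in WT and 1.100%, 0.908% and 1.405% in KO, so KO3 lay above WT1 and WT2 and the groups overlapped.

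**Figure D5:**
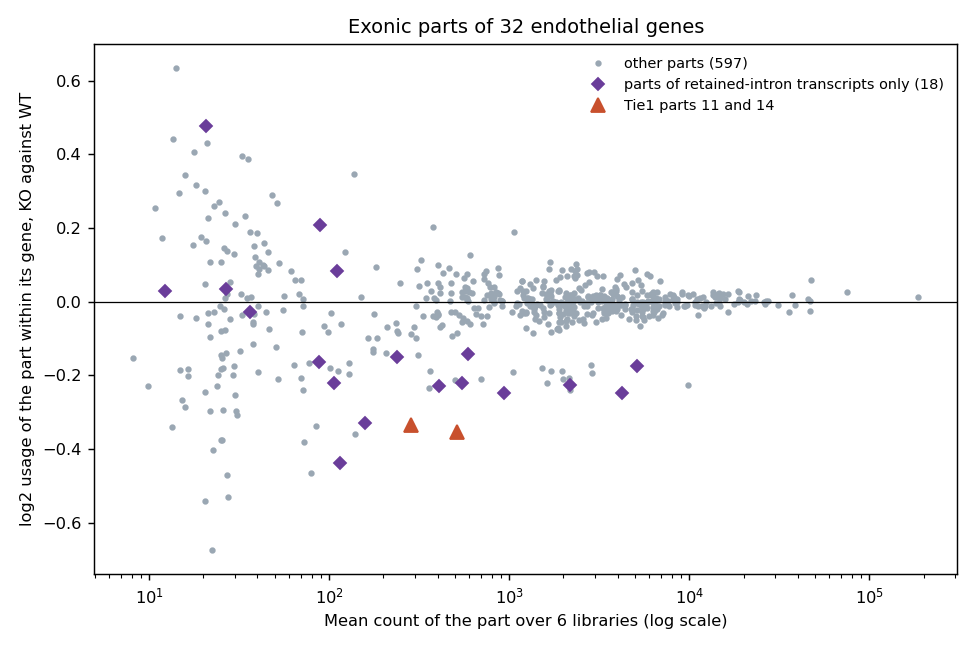
Log2 usage of each tested exonic part within its gene, KO against WT (y axis), by its mean count over 6 libraries (x axis, log scale). The 18 parts of retained-intron transcripts only are purple, with 13 below 0, and the 2 Tie1 parts with the smallest p are orange triangles.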

How the data were processed

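Polyadenylated RNA was sequenced in 6 libraries, 3 KO and 3 WT. The authors deposited a table per library of raw read counts, covered bases, length and covered fraction for 368092 exonic parts of Ensembl 67 on NCBIM37, per the file headers. Covered bases and fractions were not used for any test, and lengths only to pick the part for the longest-part alternative. Of tools and builds, the submitters' processing notes list TopHat 1.4.1 and GRCh37; the latter is human and conflicts with the files. How reads were counted, and whether by strand, is not given in the sources used here, so reads of overlapping and antisense genes cannot be told apart. Symbols and RefSeq sequences came from GRCm38 tables, matched by identifier and symbol (31300 of 35981 single identifiers).

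Part counts were summed per gene, so a read spanning parts enters more than once. Of the 34 genes, 5 lie in aggregates with a neighbour (Eng, Ramp2, Egfl7, Rasip1 and Cyyr1), and 7 have a part overlapping another gene. The quasi-likelihood test of edgeR 4.0.16 (R 4.3.3; TMM, filterByExpr, no covariates) was used for genes and diffSpliceDGE for parts, each Benjamini-Hochberg adjusted over all features, threshold 0.05. Library ratios have 0.1 CPM added. Both tests were tested on simulated counts. Replicate libraries differed far beyond sampling noise (chi-square per gene 73.7 to 220.3). Deviations from the group means were at most weakly correlated between same-numbered WT and KO libraries (0.121, -0.082 and 0.192). This does not settle whether they are paired.

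The genes and lists were chosen with earlier results of these data known. Values in every library are given for Ehd3 and Emcn, genes past the test, the 8 with the smallest p, the 3 highest and 3 lowest per kb and at least 1 per role; Pecam1, Sparcl1, S1pr1 and Nostrin were added after their values were seen. Alternatives were RLE or total-count scaling, other filters, a replicate block, DESeq2 1.42.0, voom in limma 3.58.1, parts overlapping no other gene, the longest part, and leaving out libraries. Splitting aggregates by transcript was added after seeing the data.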

Additional observations from a re-analysis of the deposited data

How the results depend on the processing

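Across settings 0 of the 34 endothelial genes were called higher in KO. The count called lower, 1 by edgeR, was 6 with DESeq2 (Adgrf5, Esam, Ehd3, Cldn5, Fabp4 and Robo4) and 0 with total counts, with the longest part alone and with WT3 and KO3 left out; leaving out each library gave 0 to 0. Over all genes the count of 666 became 82 with the replicate block, 2766 with DESeq2, 424 with the longest part alone and 98 without WT3 and KO3, and 31 to 254 when each library was left out. Over all exonic parts the count of 148 became 409 with limma-voom diffSplice and 52 to 175 when each library was left out, and 129 with the replicate block; no part of the 34 genes was called in any of these. The causes were not tested.

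Adgrf5 kept its direction in all 17 alternatives (log2 fold change -0.32 to -0.19) and passed in 7 of them (adjusted p 4.3e-09 to 0.243). In those that left out libraries, the direction follows from the lack of overlap between the groups. Same-numbered libraries had correlations of 0.121, -0.082 and 0.192, and 1 of 3 WT libraries correlated best with its own number. These weak values do not settle whether the numbers pair the libraries. With the replicate block the called gene was Fabp4 (-0.65, adjusted p = 0.0414), and Adgrf5 had an adjusted p of 0.105. Of the 34 genes, 20 kept their sign in every alternative and 14 did not, 10 of these without WT3 and 7 with total counts, which moved the median of all genes to 0.068. With total counts 22 genes were below 0. Outside the 34, Cd2bp2 passed in 9 of 17 alternatives (adjusted p = 0.0893 with the replicate block), Icam1 in 17, Plat and S1pr1 in 9, Vcam1 in 8, Nostrin in 7 and Nr2f2 in 5.

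With at least 627 counts per gene and library, counting error was small, and the precision was limited by the spread between 3 libraries a group.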
